A study of Mus musculus with 9 samples.

Results

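The genes described here take glucose into the cell and break it down or store it: glucose transporters, the enzymes of glycolysis, lactate dehydrogenases and monocarboxylate transporters, the pentose phosphate enzymes, and enzymes of glycogen and sugar phosphates. They were chosen by name from that pathway, 40 genes in all, among 18193 genes with a probe set of their own in the deposited table. Of the 40, 35 had a probe set that named them alone. Gpi1, Pfkfb1, Gapdh, Eno1 and G6pdx had none and were not analysed here. A further 3 members, Slc2a3, Fbp1 and Slc16a3, were above the array median on fewer than 3 of the 9 arrays and were too dim to test, so 32 of 11006 tested genes were members. Among these 32, 23 were above the median of every array, and the other 9 (Slc2a4, Pfkfb3, Pfkfb4, Fbp2, Aldoc, Pgam2, Eno2, Gbe1 and Pygl) were above it on some arrays only.

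Total RNA from stomach cells of C57BL/6 mice was measured on 9 Affymetrix arrays, 1 per sample, in 3 groups of 3. Chief samples held cells of the gastric corpus, the main body of the stomach, labelled as Mist1+ Tomato+. Mist1 is a transcription factor found in cells that secrete enzymes, and Tomato is a red fluorescent reporter. Isthmus samples held Mist1+ Tomato+ corpus cells after Lgr5+ cells had been ablated, and parietal samples held gastric parietal cells. Cells of both Mist1+ groups came from a flow cytometry sort. Age, the driver of the reporter, the means of ablation and the way parietal cells were collected were not given in the sources used here. Nor do the labels say that samples came from separate animals, so the spread behind each p-value is that between samples and may be largely technical.

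Glycolysis splits glucose into pyruvate in the cytosol and yields ATP without oxygen. Phosphofructokinase is its main control point, and the bifunctional Pfkfb enzymes set the level of fructose 2,6-bisphosphate, which activates it. The pentose phosphate pathway branches off after the hexokinase step and supplies NADPH and ribose. Parietal cells secrete acid with an ATP-driven proton pump and are packed with mitochondria, while chief cells make and export digestive enzymes.

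All levels below are log2 signals, in which a difference of 1 is a doubling. Array medians were 6.38 to 6.70 in the chief, 5.92 to 6.32 in the isthmus and 5.80 to 5.86 in the parietal samples, so the 3 parietal arrays had the lowest medians. The parietal markers Atp4a, Atp4b, Slc26a7, Kcne2, Kcnq1, Cckbr, Car2 and Aqp4 had a summed linear signal of 70300 to 81600 in parietal, 31300 to 40100 in chief and 22700 to 35200 in isthmus samples, and 6 of the 8 passed the test as higher in parietal than in chief samples. Between 6 and 7 of these 8 markers were above the array median on each chief and isthmus array as well. The 6 chief cell markers measured summed to 75600 to 101000 in the chief, 29100 to 37700 in the isthmus and 17500 to 27000 in the parietal samples. Markers of dividing cells (Mki67, Top2a and Cdk1) summed to 5530 to 9770, 9070 to 12200 and 336 to 433 in the same order, and 7 endocrine markers to 41000 to 80500, 18800 to 42500 and 452 to 679. The 5 pit cell markers summed to 104000 to 129000, 67400 to 80500 and 52200 to 59100, and the neck cell markers to 13100 to 28100, 11000 to 13100 and 2750 to 7040. Markers of all 5 of these cell types were thus lowest in the parietal samples, and their part in the differences below was not tested. In RNA of whole samples, fewer cells of a type and less RNA per cell cannot be told apart.

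A pair of arrays stood apart from their groups. Fibroblast markers summed to 25700 in chief replicate 3 and to 61.4 to 403 on the other 8 arrays, red blood cell markers to 24400 against 2570 to 4150, and leukocyte markers to 705 against 57.0 to 104. The X-inactivation RNA Xist was 11.72 in chief replicate 3 and 13.13 in parietal replicate 1 against 4.46 to 5.93 elsewhere. The Y-linked Eif2s3y, Kdm5d and Uty were 2.84, 0 and 2.72 in parietal replicate 1 and at least 7.08 on every other array. Parietal replicate 1 thus had a female pattern and parietal replicates 2 and 3 a male one, so these samples were not all from 1 animal. In chief replicate 3 Xist and the Y-linked genes were high together. The part of these differences in the results below was not tested, and the counts are also given without both arrays.

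The parietal samples differed from each Mist1+ group in many of these genes. Against the chief samples, 12 of the 32 tested members (37.5%) were higher in the parietal samples, where 10.7% of all tested genes were, and 3 (9.38%) were lower, where 13.5% of all genes were. The other 17 did not pass. Against the isthmus samples, 12 (37.5%) were higher, beside 12.2% of all genes, and 8 (25%) were lower, beside 15.4% of all genes. Calls are at an adjusted p under 0.05 in limma, a linear model fitted to all genes at once. The median log2 difference of the tested members was 0.358 against the chief and 0.445 against the isthmus samples, and that of all tested genes -0.103 and -0.0933. With both arrays that stood apart left out, 8 members were higher and 1 lower against the chief samples, with Aldoa, Pfkm, Ldha, Gbe1, Fbp2 and Pygb no longer called (adjusted p = 0.0522 to 0.234). Against the isthmus samples 11 were higher and 8 lower, with Ldha lost (adjusted p = 0.0508). Leaving out arrays weakens the test for every gene, so a lost call does not show that these arrays carried the difference. Both comparisons use the same 3 parietal arrays, so their values stand side by side and do not check each other.

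The split between higher and lower depends on how arrays are put on one scale. When each array was centred on its own median, differences over all genes moved up by a median of 0.693 against the chief and 0.317 against the isthmus samples. The members then split 17 higher to 1 lower and 13 higher to 4 lower, and all genes 3100 to 807 and 1904 to 1178. Quantile normalization moved the medians by 0.18 and 0.136. No called difference of a member changed sign under any of the 22 alternatives in which it was tested.

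Between isthmus and chief samples, 1 of the 32 members passed the test. Pfkfb3 was higher in the isthmus samples (3.12%, beside 0.391% of all genes) and 0 were lower (beside 1.26% of all genes), while 6 members had an unadjusted limma p under 0.05. The median difference of the members was 0.0967 and that of all genes 0.03. Centring moved all differences up by a median of 0.377 and gave 4 higher and 0 lower members, with 230 and 46 among all genes. The 3 added were Pgk1 (0.76, adjusted p = 0.0355), Pygb (1.12, adjusted p = 0.0443) and Slc16a1 (1.29, adjusted p = 0.0201).

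Of the 36 differences called for members in the 3 comparisons, 14 held under every alternative in which the gene was tested. Slc2a4, Pfkfb3, Pgam1, Pkm and Ldhb held against each of the other groups. The 250 bases before their start sites in RefSeq (mouse assembly GRCm38.p6) are shown for the members among these 5 that the promoter table holds, because their calls were the steadiest. Pfkfb3 has a pair of annotated starts, at chr2:11502091-11502340 and chr2:11553930-11554179, both on the minus strand. The Pgam1 window is chr19:41911621-41911870 on the plus strand, the first Pkm window chr9:59656326-59656575 on the plus strand, and the Ldhb window chr6:142507958-142508207 on the minus strand. Each is written 5′ to 3′ along the gene's strand, and capitals mark ACGTG, the core of the hypoxia response element, on either strand.
Pfkfb3, first window: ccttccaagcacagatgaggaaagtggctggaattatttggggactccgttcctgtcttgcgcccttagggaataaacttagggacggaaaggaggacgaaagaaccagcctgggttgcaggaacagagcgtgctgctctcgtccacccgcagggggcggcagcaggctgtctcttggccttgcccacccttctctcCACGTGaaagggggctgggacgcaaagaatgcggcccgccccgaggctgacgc
Pfkfb3, second window: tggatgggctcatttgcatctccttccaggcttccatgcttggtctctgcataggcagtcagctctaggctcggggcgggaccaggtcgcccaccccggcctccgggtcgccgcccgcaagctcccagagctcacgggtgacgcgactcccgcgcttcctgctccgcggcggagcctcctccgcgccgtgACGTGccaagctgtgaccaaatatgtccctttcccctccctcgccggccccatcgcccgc
Pgam1: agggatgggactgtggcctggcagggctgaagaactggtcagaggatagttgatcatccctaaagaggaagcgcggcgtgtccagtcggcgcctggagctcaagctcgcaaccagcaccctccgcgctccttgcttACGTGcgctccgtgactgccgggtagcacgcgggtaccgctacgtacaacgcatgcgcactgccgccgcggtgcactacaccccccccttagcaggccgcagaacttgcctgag
Pkm, first window: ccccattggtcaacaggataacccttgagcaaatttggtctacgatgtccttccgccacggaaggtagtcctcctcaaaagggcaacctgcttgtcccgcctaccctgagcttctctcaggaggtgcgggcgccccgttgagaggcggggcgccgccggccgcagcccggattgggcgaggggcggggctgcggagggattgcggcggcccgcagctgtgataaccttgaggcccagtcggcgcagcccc
Ldhb: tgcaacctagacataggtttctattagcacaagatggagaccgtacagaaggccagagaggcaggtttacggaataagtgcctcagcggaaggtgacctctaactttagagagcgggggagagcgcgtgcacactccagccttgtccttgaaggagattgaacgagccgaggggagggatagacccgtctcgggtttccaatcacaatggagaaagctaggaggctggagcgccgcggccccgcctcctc
The first Pfkfb3 window holds ACGTG on both strands, where the letters form CACGTG, an E-box. The second Pfkfb3 window and the Pgam1 window hold it once each, and the first Pkm window and the Ldhb window do not hold these letters. The second Pkm window, at chr9:59656977-59657226 on the plus strand and not shown, holds ACGTG once.

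Over all members in the promoter table, 21 of 57 windows (36.8%) held ACGTG on either strand, and 5444 of 32851 windows in the table (16.6%) did. Counted by gene, 17 of 38 members had it in at least 1 window, beside 4998 of 27025 genes in the table (18.5%). CACGTG, which always contains ACGTG, was in 6 member windows (10.5%) and in 6.02% of all windows. TCAAGGTCA, the binding sequence of estrogen-related receptors, was in 0 member windows and in 0.387% of all windows. The member windows had a median GC content of 59.6%, against 52.4% over all windows. These are counts of letters and not of bound sites.

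The RNA signals of the glucose transporters did not move together, and uptake itself was not measured. Slc2a4 encodes GLUT4, the transporter that insulin brings to the surface of fat and muscle cells. It had log2 signals of 5.52, 2.68 and 8.65 in chief, 5.45, 9.41 and 5.92 in isthmus, and 11.88, 12.19 and 11.83 in parietal samples. Every parietal array lay above every other array, while chief and isthmus arrays overlapped and only 1 of 3 in each group was above its array median. The parietal mean of 11.97 ± 0.20 (SD, n = 3) was at least 27.6-fold above the chief mean (limma adjusted p = 0.00312) and at least 26.9-fold above the isthmus mean (limma adjusted p = 0.0104). "At least" marks a fold in which arrays of the dimmer group below their array median were set to that median. The measured differences of 6.35 and 5.04 ran from 4.88, without chief replicate 2, to 7.87, without chief replicate 3, and from 4.30, without isthmus replicate 1, to 6.28, without isthmus replicate 2. A second Slc2a4 probe set differed by 6.19 log2 from the chief and 6.59 from the isthmus samples.

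The other tested transporter, Slc2a1, encodes GLUT1, the carrier of basal glucose uptake in many cells. Its signals were 12.69, 12.84 and 12.65 in chief, 12.56, 11.93 and 12.95 in isthmus, and 12.75, 12.34 and 12.73 in parietal samples. The 3 groups overlapped. The parietal difference was -0.12 from the chief (95% interval -0.60 to 0.36, limma adjusted p = 0.739) and 0.13 from the isthmus samples (-0.35 to 0.60, adjusted p = 0.718). Slc2a3, or GLUT3, was above the array median on 1 array, parietal replicate 2, at 8.92. The defining fat marker Adipoq lay between 2.31 and 3.86 on all 9 arrays, and the 3 fat markers measured summed to 39.9 to 138 in the parietal against 143 to 546 in the chief and 531 to 1080 in the isthmus samples, with Lep listed at 0 on an array. The striated muscle markers Acta1 and Ckm did not exceed 2.65 and 6.03 on any array. Of all 9 striated muscle markers, 1 to 3 were above the array median on each parietal array and 1 to 2 on each chief and isthmus array. The part of fat or muscle RNA in the Slc2a4 difference was not tested.

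Neither hexokinase, the enzyme that traps glucose as glucose 6-phosphate, passed the test on the deposited scale. Hk1 was 8.90, 9.48 and 10.81 in chief, 10.46, 10.26 and 9.81 in isthmus, and 10.58, 10.30 and 10.08 in parietal samples, and its groups overlapped. Hk2 was 9.46, 9.55 and 9.53 in chief, 9.48, 9.53 and 9.68 in isthmus, and 10.79, 9.64 and 10.36 in parietal samples. Each parietal Hk2 value lay above every chief value, but parietal replicate 2 fell within the isthmus range. The Hk2 difference from the chief samples was 0.75 (95% interval -0.02 to 1.52, limma adjusted p = 0.147). With centring on array medians both were called against the chief samples, Hk1 at 1.28 (adjusted p = 0.034) and Hk2 at 1.44 (adjusted p = 0.00893). Adpgk, another glucose-phosphorylating kinase but not a member, was picked after its values had been seen. It was called higher in parietal than in chief (limma adjusted p = 0.00569) and isthmus samples (adjusted p = 0.0011). With its plainly named probe set neither call passed (adjusted p = 0.146 and 0.0898).

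At the phosphofructokinase step, genes for 2 of the 3 subunits were higher in the parietal than in the chief samples, beside 10.7% of all tested genes. Pfkl, the liver-type subunit, was 9.93, 9.30 and 10.66 in chief, 10.72, 10.40 and 10.41 in isthmus, and 12.09, 12.08 and 12.04 in parietal samples. All 3 parietal arrays stood above the rest. That is 4.31-fold above the chief (limma adjusted p = 0.000457) and 2.95-fold above the isthmus samples (adjusted p = 0.0028). A second bright probe set of Pfkl differed by 2.85 and 1.61 log2, but another, above the array median on 4 of 9 arrays, differed by 0.36 and 1.27 and did not pass (adjusted p = 0.839 and 0.401).

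Pfkm, the muscle-type subunit, was 8.05, 9.44 and 7.02 in chief, 9.24, 8.77 and 8.60 in isthmus, and 10.02, 10.14 and 9.99 in parietal samples. The parietal arrays did not overlap either group and lay close together, while the chief arrays were spread over more than 2 log2 units. It was 3.68-fold higher in the parietal than in the chief samples (limma adjusted p = 0.0246), and the difference of 1.18 from the isthmus samples did not pass (adjusted p = 0.129). Without chief replicate 2 the first difference was 2.52 in place of 1.88. It no longer passed when chief replicate 1 or 3 or any 1 parietal replicate was left out (adjusted p = 0.0566 to 0.0822). Pfkp, the platelet-type subunit, did not pass in either comparison, with differences of -0.12 (adjusted p = 0.844) and -0.91 (adjusted p = 0.0788).

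Pfkfb3, the Pfkfb enzyme with the strongest kinase activity and so an activator of phosphofructokinase, ordered the 3 groups. Its signals were 4.23, 4.05 and 4.04 in chief, 5.88, 7.75 and 7.75 in isthmus, and 10.46, 10.64 and 10.72 in parietal samples. The groups did not overlap, and no chief array reached its array median. Parietal samples were at least 16.9-fold above chief (limma adjusted p = 2.78e-05) and at least 11.1-fold above isthmus samples (adjusted p = 0.00182). Isthmus samples were at least 1.51-fold above chief samples (adjusted p = 0.0428), and that call ended whichever array but isthmus replicate 1 was left out (adjusted p = 0.0624 to 0.126). The second probe set of Pfkfb3 showed parietal differences of 6.44 and 4.57 log2, and on it the isthmus values of 7.46, 3.30 and 5.32 overlapped the chief values of 3.65, 4.03 and 2.81. Without isthmus replicate 1 the first probe set differed by 2.86 between parietal and isthmus samples in place of 3.48, and by 3.64 between isthmus and chief samples in place of 3.02.

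Pfkfb2, the heart-type enzyme, lay between 9.63 and 10.70 in the chief, 9.09 and 10.21 in the isthmus, and 10.50 and 10.98 in the parietal samples. Its differences of 0.57 and 1.01 did not pass (limma adjusted p = 0.307 and 0.0642), but did with centring (1.26, adjusted p = 0.0205, and 1.32, adjusted p = 0.0197), while its 3 other probe sets gave 1.68, 0.70 and 1.08 against the chief samples. Pfkfb4 was near the array medians and was called in no comparison. Fbp2 went the other way. It encodes the muscle form of fructose bisphosphatase, which reverses the phosphofructokinase step. Its signals were 8.60, 9.72 and 9.32 in chief, 10.68, 10.02 and 10.89 in isthmus, and 5.60, 7.71 and 2.36 in parietal samples. All parietal values lay below all others, and 1 of the 3 was above its array median. It was at least 6.68-fold lower than in the chief (limma adjusted p = 0.0116) and at least 16.6-fold lower than in the isthmus samples (adjusted p = 0.00176). Its differences of -3.99 and -5.31 were -5.23 and -6.55 without parietal replicate 2 and -2.56 and -3.88 without parietal replicate 3. Without chief replicate 3 and parietal replicate 1 together the first call was lost (adjusted p = 0.0554). The striated muscle markers summed to 630 to 1130 in the chief, 652 to 930 in the isthmus and 214 to 528 in the parietal samples, and of the 9, Tnni2 passed as lower in the parietal samples, Tnnt3 was listed at 0 on an array, and their part in the Fbp2 difference was not tested. Fbp1, the liver form, did not exceed 5.49 on any array.

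**Figure D1:**
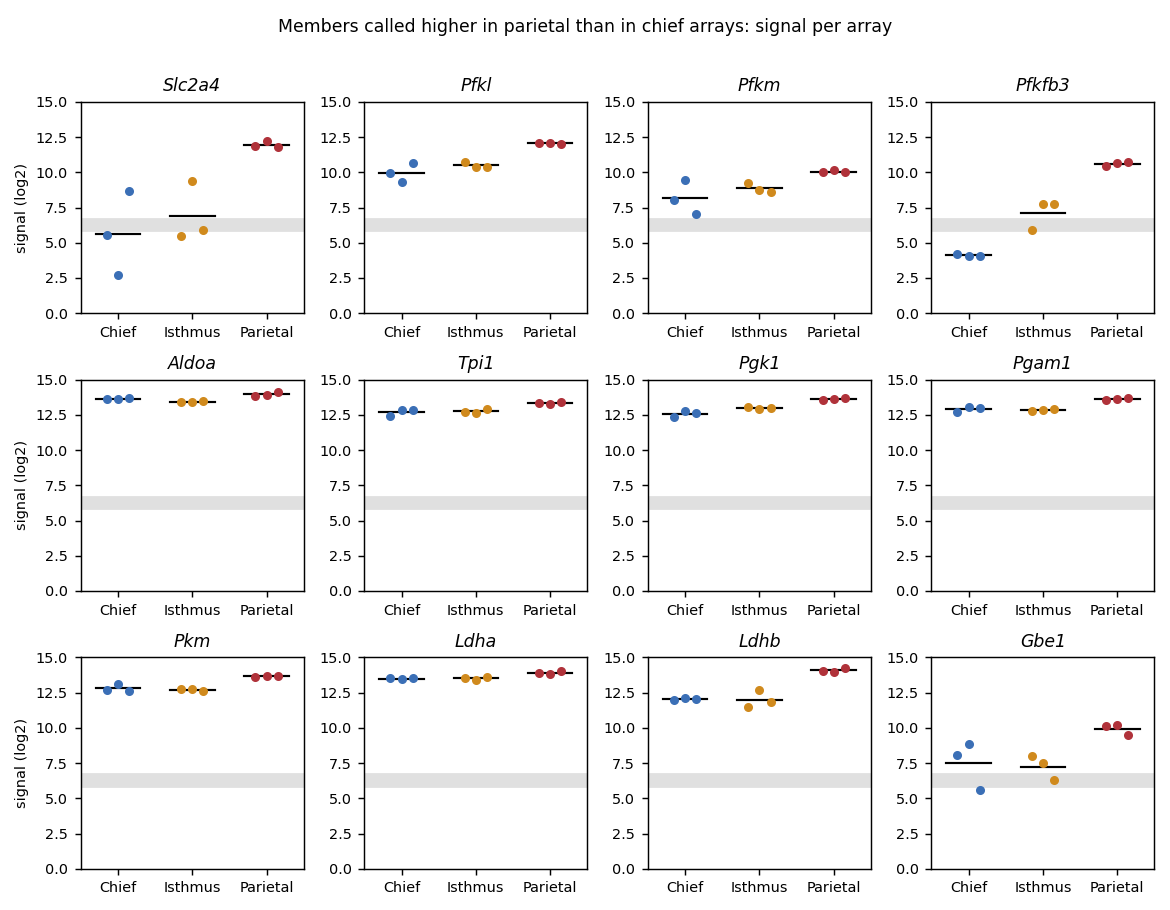
Log2 signal of the 12 members called higher in parietal than in chief samples, 1 point per array, with a black bar for the group mean and a grey band over the range of the 9 array medians (5.80 to 6.70). In all 12 panels the 3 parietal points lie above the 3 chief points, widest apart in Slc2a4 (means 11.97 against 5.62) and Pfkfb3 (10.61 against 4.11) and closest in Aldoa (13.96 against 13.64).

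In lower glycolysis, from aldolase to pyruvate kinase, 5 of 8 tested members were higher in parietal than in chief samples and 0 lower, with 3 not passing. Among all tested genes 10.7% were higher and 13.5% lower. Against the isthmus samples 6 were higher and 1 was lower, beside 12.2% and 15.4% of all genes. On the probe sets used, the ubiquitous isoforms moved by less than 1.1 log2 and within narrow groups. Pgk1, phosphoglycerate kinase, which makes the first ATP of the pathway, was 12.36, 12.77 and 12.63 in chief, 13.04, 12.93 and 12.95 in isthmus, and 13.57, 13.60 and 13.70 in parietal samples. Its groups did not overlap, and parietal samples were 2.05-fold above chief (limma adjusted p = 9.04e-05) and 1.57-fold above isthmus samples (adjusted p = 0.00199, and 0.0609 without the intensity trend). Pkm, pyruvate kinase, which makes the last ATP, was 12.70, 13.09 and 12.64 in chief, 12.76, 12.75 and 12.63 in isthmus, and 13.62, 13.66 and 13.71 in parietal samples. The parietal arrays stood above all others by a gap wider than the range of either remaining group. The fold was 1.81 (limma adjusted p = 0.00055) and 1.93 (adjusted p = 0.000209).

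Pgam1, phosphoglycerate mutase, was 12.69, 13.03 and 12.97 in chief, 12.79, 12.86 and 12.89 in isthmus, and 13.55, 13.64 and 13.67 in parietal samples. Again only the parietal group stood apart, by 1.65-fold (limma adjusted p = 0.000786) and 1.71-fold (adjusted p = 0.000419). Tpi1, triose phosphate isomerase, was 12.45, 12.86 and 12.81 in chief, 12.69, 12.62 and 12.93 in isthmus, and 13.36, 13.30 and 13.44 in parietal samples. It was 1.58-fold (adjusted p = 0.00449) and 1.54-fold (adjusted p = 0.00552) higher, and neither call passed without the intensity trend in the fit (adjusted p = 0.0762 and 0.0824). The Tpi1 probe set used differed by 0.66 log2 from the chief samples, and its other probe sets by 0.60 and 1.24.

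Aldoa, aldolase A, was 13.63, 13.63 and 13.66 in chief, 13.40, 13.38 and 13.49 in isthmus, and 13.83, 13.93 and 14.12 in parietal samples. The groups did not overlap, but the parietal lead was small at 1.25-fold (limma adjusted p = 0.0276) and 1.45-fold (adjusted p = 0.00118). Against the chief samples it no longer passed when chief replicate 1, 2 or 3 or parietal replicate 2 or 3 was left out (adjusted p = 0.0517 to 0.132). Neither Aldoa call passed without the intensity trend (adjusted p = 0.302 and 0.092). Of its 4 other probe sets, 3 differed from the chief samples by 0.50 to 0.59 and the dimmest of them by -0.21.

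The isoforms tied to other tissues were dim and went separate ways. Pgam2, the muscle mutase, was 2.29, 5.78 and 3.84 in chief, 1.78, 3.06 and 2.84 in isthmus, and 6.70, 8.46 and 6.39 in parietal samples. Only the parietal arrays were above their medians, at least 2.04-fold above the isthmus samples (limma adjusted p = 0.0168), a call lost without parietal replicate 2 (3.98 in place of 4.62, adjusted p = 0.097). The difference of 3.21 from the chief samples did not pass (adjusted p = 0.0867) and was 3.91 with centring (adjusted p = 0.03). Eno2, the neuronal enolase, was 4.69, 6.87 and 6.23 in chief, 8.69, 6.67 and 6.90 in isthmus, and 3.59, 2.03 and 3.39 in parietal samples. No parietal array was above its median, and the gene was at least 3.00-fold lower there than in the isthmus samples (adjusted p = 0.00689, and 0.045 without isthmus replicate 1, when the difference was -3.78 in place of -4.42), while the chief comparison did not pass (adjusted p = 0.0573). Aldoc, the brain aldolase, ranged from 1.55 to 8.40 over the 9 arrays and was called in no comparison.

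Both lactate dehydrogenase genes were higher in the parietal samples, by very different amounts. Ldhb encodes the heart-type subunit of the enzyme that interconverts pyruvate and lactate, and was 12.01, 12.10 and 12.07 in chief, 11.50, 12.71 and 11.81 in isthmus, and 14.06, 13.98 and 14.22 in parietal samples. The parietal arrays stood more than 1 log2 unit above every other array. Ldhb was 4.07-fold above the chief (limma adjusted p = 7.33e-05) and 4.23-fold above the isthmus samples (adjusted p = 5.63e-05), and its 3 other probe sets gave 2.79, 3.01 and 3.21 log2 against the chief samples. Ldha, the muscle-type subunit, was 13.52, 13.44 and 13.51 in chief, 13.57, 13.40 and 13.63 in isthmus, and 13.86, 13.80 and 14.00 in parietal samples. The parietal arrays lay above all others here too, yet the differences were 1.32-fold (adjusted p = 0.0101) and 1.28-fold (adjusted p = 0.0161). The Ldha calls were lost without parietal replicate 3 (adjusted p = 0.0537 and 0.0791), the one against the isthmus samples also without isthmus replicate 2 (adjusted p = 0.077), and under quantile normalization its difference there was 0.04 (adjusted p = 0.772). Neither Ldha call passed without the intensity trend in the fit (adjusted p = 0.206 and 0.244).

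Slc16a1 encodes MCT1, a carrier of lactate and other monocarboxylates across the plasma membrane. It was 11.12, 11.78 and 11.91 in chief, 12.25, 12.48 and 12.81 in isthmus, and 11.19, 11.54 and 11.07 in parietal samples. Here the isthmus group was the one that stood apart, above both others. Parietal samples were 2.37-fold below isthmus samples (limma adjusted p = 0.00216, and 0.104 with the mean of its probe sets) and differed from chief samples by -0.34 (adjusted p = 0.347). The isthmus lead over the chief samples, 0.91, did not pass (adjusted p = 0.0811). Slc16a3, or MCT4, lay between 3.37 and 7.32 and was not tested.

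**Figure D2:**
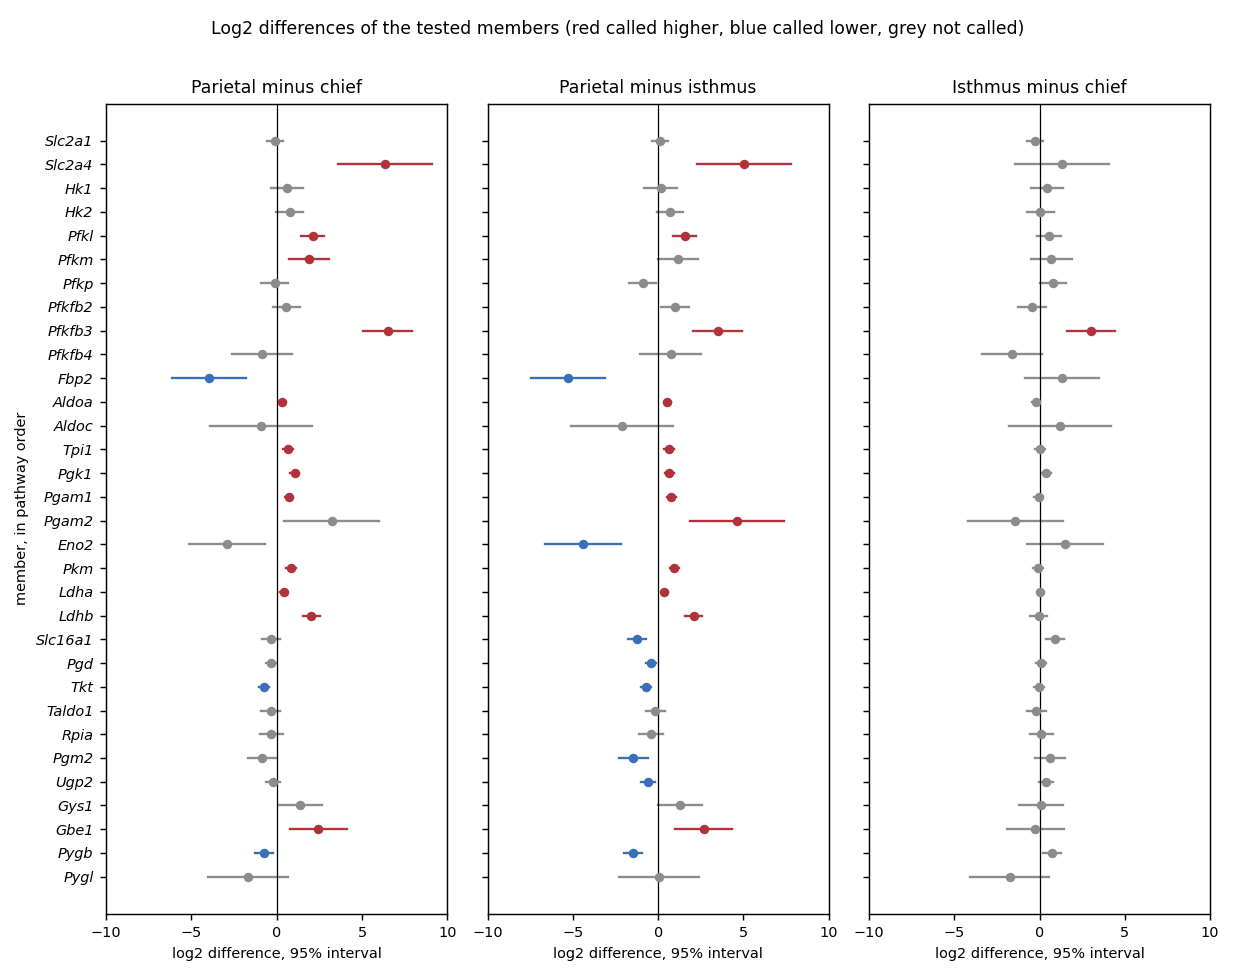
Log2 difference of each of the 32 tested members, listed in pathway order, in the 3 comparisons, with the 95% interval of the limma fit. Red marks members called higher, blue members called lower and grey members not called. Both parietal panels hold 12 red members, with 3 blue against the chief and 8 blue against the isthmus samples, and the isthmus minus chief panel holds 1 red member, Pfkfb3.

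None of the 4 tested pentose phosphate members was higher in the parietal samples. Among all tested genes 10.7% were higher against the chief and 12.2% against the isthmus samples, so 0 of 4 is near that share. Against the chief samples 1 of 4 was lower (beside 13.5% of all genes), and against the isthmus samples 2 were (beside 15.4%). Tkt, transketolase, which shuttles carbon between pentose phosphates and glycolysis, was 13.31, 13.45 and 13.10 in chief, 13.09, 13.19 and 13.45 in isthmus, and 12.60, 12.67 and 12.39 in parietal samples. All parietal arrays lay below all others, 1.66-fold below the chief (limma adjusted p = 0.00224) and 1.61-fold below the isthmus samples (adjusted p = 0.00281). After centring on array medians these differences shrank to -0.04 (adjusted p = 0.879) and -0.37 (adjusted p = 0.125). A second bright probe set of Tkt differed by -0.66 and -1.36, and on it the chief comparison did not pass (adjusted p = 0.0632). Both calls were also lost with the mean of its probe sets (adjusted p = 0.201 and 0.359). The same held without the intensity trend (adjusted p = 0.0579 and 0.0615).

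Pgd, 6-phosphogluconate dehydrogenase, one of the NADPH-making enzymes, was 13.52, 13.55 and 13.33 in chief, 13.42, 13.48 and 13.82 in isthmus, and 13.27, 13.23 and 12.91 in parietal samples. Parietal arrays were below the others without overlap. The difference passed against the isthmus samples, at 1.35-fold lower (limma adjusted p = 0.0292), and not against the chief samples (-0.33, adjusted p = 0.0964). The call was lost without isthmus replicate 3 or parietal replicate 3 (adjusted p = 0.119 and 0.125), and with centring the difference was -0.12 (adjusted p = 0.631). Taldo1, transaldolase, and Rpia, ribose 5-phosphate isomerase, overlapped between all groups and did not pass, with parietal minus chief differences of -0.35 (adjusted p = 0.362) and -0.32 (adjusted p = 0.511). The dividing-cell marker Mki67 was 12.22 to 12.98 in the chief, 12.67 to 13.08 in the isthmus and 8.0 to 8.28 in the parietal samples, the same direction as Tkt and Pgd, and its part in their difference was not tested.

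Among the 6 glycogen and sugar phosphate members, Gbe1 was higher and Pygb lower in the parietal than in the chief samples. Gbe1, the branching enzyme of glycogen synthesis, was 8.04, 8.87 and 5.61 in chief, 7.97, 7.52 and 6.27 in isthmus, and 10.10, 10.19 and 9.5 in parietal samples. The parietal arrays did not overlap the others. It was at least 4.17-fold (limma adjusted p = 0.0362) and at least 6.32-fold (adjusted p = 0.0204) higher. The chief call was lost without chief replicate 3 or any 1 of the 3 parietal replicates (adjusted p = 0.0648 to 0.116). Its chief difference of 2.42 was 1.48 without chief replicate 3 and 3.10 without chief replicate 2. It stayed at 2.29 to 2.64 without any 1 parietal replicate. The isthmus call was lost without isthmus replicate 3 or parietal replicate 1 or 2 (adjusted p = 0.0607 to 0.0778).

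Pygb, the brain glycogen phosphorylase, which releases glucose 1-phosphate from glycogen, was 11.31, 12.03 and 11.63 in chief, 12.31, 12.44 and 12.44 in isthmus, and 10.65, 11.36 and 10.68 in parietal samples. Parietal and chief arrays overlapped, and the isthmus arrays were above all. Pygb was 2.83-fold lower in the parietal than in the isthmus samples (limma adjusted p = 0.000632) and 1.69-fold lower than in the chief samples (adjusted p = 0.0375). The second call was lost whichever array but chief replicate 1 or parietal replicate 2 was left out (adjusted p = 0.0502 to 0.135), and with centring its difference was -0.07 (adjusted p = 0.87).

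Pgm2 and Ugp2, enzymes of sugar phosphates, passed as lower against the isthmus and not against the chief samples (adjusted p = 0.15 and 0.431), and the difference between the comparisons was not tested. Pgm2, a phosphoglucomutase that joins glycogen to glycolysis, was 9.92, 9.88 and 10.12 in chief, 10.99, 10.24 and 10.52 in isthmus, and 9.55, 8.26 and 9.59 in parietal samples. It was 2.73-fold below the isthmus samples (limma adjusted p = 0.0167), a call lost without isthmus replicate 1 (adjusted p = 0.072) or parietal replicate 2 (adjusted p = 0.063), and with centring (-1.13, adjusted p = 0.0636). Ugp2, which makes the UDP-glucose used for glycogen, was 12.40, 12.60 and 11.85 in chief, 12.62, 12.62 and 12.77 in isthmus, and 11.98, 11.94 and 12.25 in parietal samples. Parietal and chief arrays overlapped, and parietal samples were 1.53-fold below isthmus samples (adjusted p = 0.0303), a call lost without any 1 of the 3 isthmus replicates or parietal replicate 1 or 2 (adjusted p = 0.0622 to 0.0958). Centring shrank it to -0.30 (adjusted p = 0.392), and it was not called with the mean of its probe sets (adjusted p = 0.0753) or without the intensity trend (adjusted p = 0.129). Gys1, glycogen synthase, was 9.49, 9.23 and 9.0 in the parietal samples, above every chief value (7.20 to 8.86) and isthmus value (7.03 to 8.89), but its differences of 1.36 and 1.27 did not pass (adjusted p = 0.12 and 0.136). Centring gave 2.05 against the chief samples (adjusted p = 0.0239), and the mean of its probe sets 1.38 (adjusted p = 0.0424) and 1.52 (adjusted p = 0.0241). Pygl, the liver phosphorylase, ranged from 4.03 to 7.36 and was not called.

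**Figure D3:**
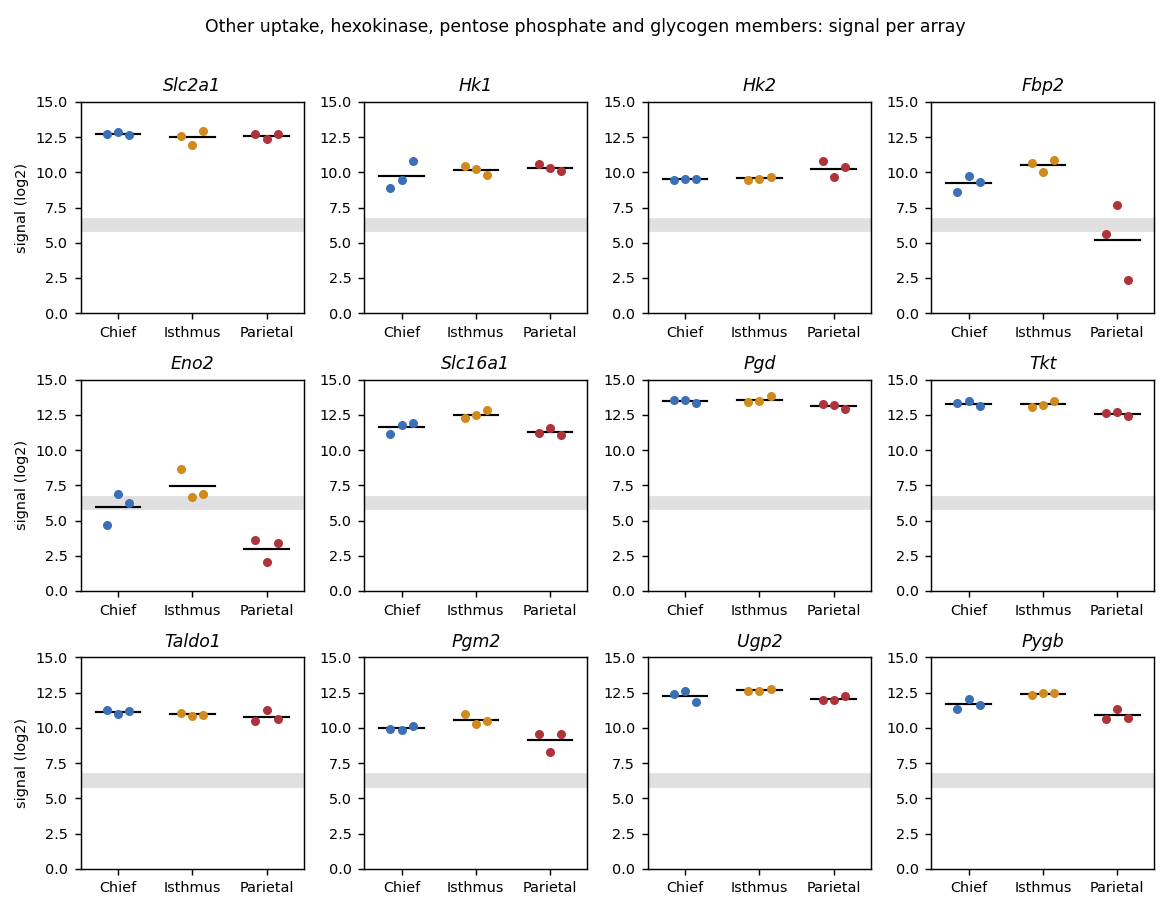
Log2 signal per array of 12 members that were lower in parietal samples in some comparison or were not called, drawn with a black bar for the group mean and a grey band over the array medians. Slc2a1 overlaps in all 3 groups near 12.6, Fbp2 falls from 9.21 in the chief and 10.53 in the isthmus to 5.22 in the parietal samples, and Tkt lies at 13.29, 13.24 and 12.55.

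Several members could be checked on more than 1 probe set, since 18 had several of their own and 17 had 1. Among the other probe sets of called members that were above the array median on at least 3 arrays, 16 of 17 had the sign of the called difference between parietal and chief samples, the exception being a probe set of Aldoa, as did 24 of 24 between parietal and isthmus samples. Probe sets of a gene share its RNA on the same arrays and are not replicates. The probe sets used for Aldoa, Pgd, Tkt and Ugp2 carry the suffix that Affymetrix gives to designs in which some probes also match other sequences.

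**Figure D4:**
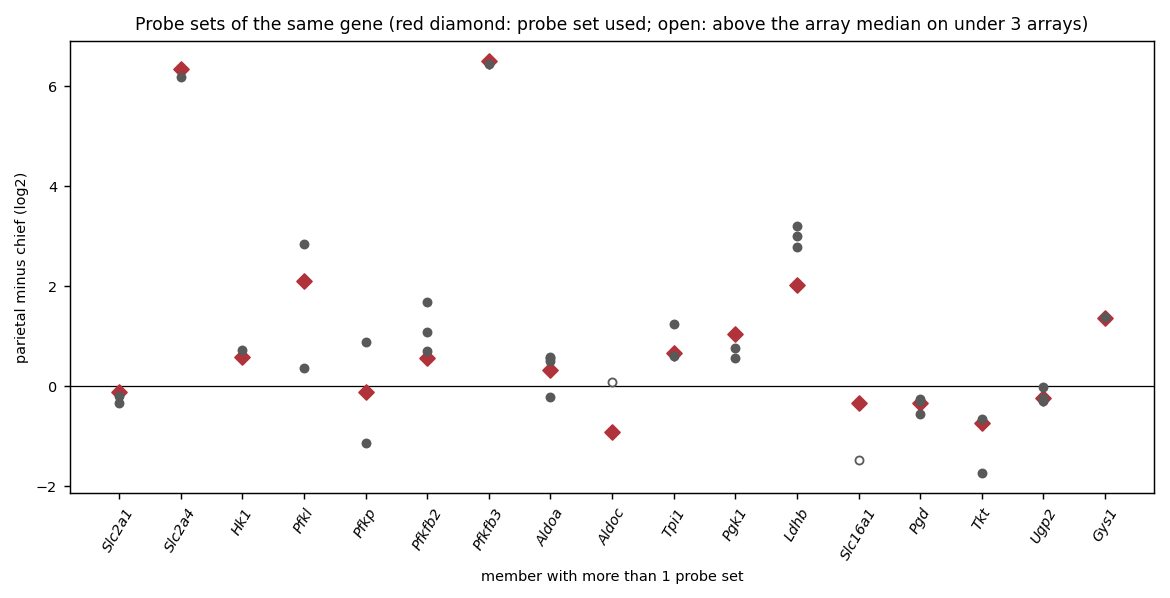
Parietal minus chief log2 difference of each probe set of the tested members that have more than 1. Red diamonds are the probe sets used, filled circles other probe sets, and open circles those above the array median on fewer than 3 arrays. The 4 probe sets of Ldhb lie between 2.03 and 3.21 and both of Pfkfb3 at 6.44 and 6.50, while a dimmer probe set of Pfkl, above the array median on 4 arrays, lies at 0.36 beside its 2.11.

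The wider pathway was described through 84 other genes, of which 77 had a probe set of their own and 52 were tested. Of these, 9 (17.3%) were higher and 7 (13.5%) lower in parietal than in chief samples, where 10.7% and 13.5% of all tested genes were. The median difference was 0.09. Against the isthmus samples 10 (19.2%) were higher and 5 (9.62%) lower, beside 12.2% and 15.4% of all genes, with a median of 0.39. With centring the splits were 21 to 5 and 15 to 4, beside 3100 to 807 and 1904 to 1178 over all genes. Between isthmus and chief samples 0 were higher and 2 (3.85%, beside 1.26% of all genes), Bsg and Khk, were lower, and the Bsg call was lost under 13 and the Khk call under 11 of 22 alternatives.

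Among uptake genes outside the members, Slc2a10 and Slc2a5 were lower in the parietal samples. Slc2a10, a transporter of the GLUT family, was 11.08, 10.02 and 10.81 in chief, 11.25, 11.41 and 8.99 in isthmus, and 5.17, 6.69 and 7.46 in parietal samples. The parietal arrays were far below both groups, at least 15.7-fold (limma adjusted p = 0.000889) and 14.8-fold (adjusted p = 0.000856). Slc2a5, the fructose transporter GLUT5, was 9.32, 7.73 and 7.91 in chief, 5.93, 5.39 and 6.04 in isthmus, and 4.17, 6.63 and 2.88 in parietal samples. It was at least 4.62-fold lower in parietal than in chief samples (adjusted p = 0.0153), which no longer passed when chief replicate 1 or parietal replicate 3 was left out (adjusted p = 0.0654 and 0.0572), and the isthmus comparison did not pass (adjusted p = 0.396). Without parietal replicate 3 its difference from the chief samples was -2.92 in place of -3.76, and without parietal replicate 2 it was -4.79. Slc2a12, or GLUT12, picked after its values had been seen, was higher in one comparison, at 8.09, 8.06 and 5.47 in chief, 4.83, 4.99 and 5.07 in isthmus, and 6.92, 8.31 and 7.65 in parietal samples. Parietal and chief arrays overlapped (0.42, adjusted p = 0.766), and parietal samples were at least 2.78-fold above isthmus samples (adjusted p = 0.0327). That call was lost without any 1 isthmus replicate or parietal replicate 2 or 3 (adjusted p = 0.0622 to 0.123), with the mean of its probe sets (adjusted p = 0.0586) and with its plainly named probe set (adjusted p = 0.397).

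Pklr, the pyruvate kinase gene of liver and red cells, went against Pkm. It was 10.80, 9.53 and 10.30 in chief, 9.52, 11.39 and 10.66 in isthmus, and 7.06, 5.13 and 4.29 in parietal samples. No parietal array came near the others, and the parietal samples were at least 15.7-fold (limma adjusted p = 0.000457) and 19.5-fold (adjusted p = 0.000235) lower. Tktl1, a transketolase-like gene, was 0, 1.99 and 4.06 in chief, 1.64, 5.54 and 5.82 in isthmus, and 8.64, 8.59 and 6.86 in parietal samples, the reverse of Tkt. It was above the median on parietal arrays only, at least 2.83-fold above the chief samples (adjusted p = 0.00969), and did not pass against the isthmus samples (adjusted p = 0.078).

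Ppp1r3c, which targets protein phosphatase 1 to glycogen, was 3.68, 5.23 and 6.60 in chief, 3.36, 7.15 and 5.16 in isthmus, and 10.06, 9.90 and 9.37 in parietal samples. It was at least 9.49-fold (limma adjusted p = 0.00536) and 9.94-fold (adjusted p = 0.00487) higher, with no overlap. Gnpda1, glucosamine 6-phosphate deaminase, was 9.16, 9.56 and 9.33 in the parietal samples against 6.98, 4.38 and 5.33 in chief and 2.65, 6.50 and 7.70 in isthmus samples. Its calls (adjusted p = 0.0286 and 0.0268) were lost under 7 and 6 of the 22 alternatives, and its difference of 3.73 from the isthmus samples was 2.25 without isthmus replicate 1. The brightest genes of this list called in neither parietal comparison were Gpd2 and Bpgm, with parietal minus chief differences of 0.05 and -0.08.

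A further 4 genes of this list, Slc16a7, Mpc1, Me1 and Prps2, were picked after their values had been seen. Slc16a7, the monocarboxylate carrier MCT2, was 11.71, 10.77 and 10.82 in chief, 10.45, 10.43 and 8.55 in isthmus, and 13.31, 13.40 and 13.52 in parietal samples, 4.96-fold (limma adjusted p = 0.00197) and 12.1-fold (adjusted p = 8.07e-05) higher. Its isthmus difference of 3.60 was 2.97 without isthmus replicate 3. Mpc1, a subunit of the mitochondrial pyruvate carrier, was 11.06, 11.35 and 10.87 in chief, 10.71, 10.76 and 10.64 in isthmus, and 12.35, 12.26 and 12.73 in parietal samples, 2.56-fold (adjusted p = 0.000662) and 3.35-fold (adjusted p = 9.46e-05) higher. Both stood clear of the other groups in every parietal array. Me1, the cytosolic malic enzyme, another source of NADPH, was 11.13, 12.10 and 11.93 in chief, 11.74, 11.83 and 12.42 in isthmus, and 9.30, 9.27 and 8.57 in parietal samples, 6.38-fold (adjusted p = 9.7e-05) and 7.73-fold (adjusted p = 4.65e-05) lower. Prps2, which turns ribose 5-phosphate into the precursor of nucleotides, was 2.67-fold (adjusted p = 0.00127) and 3.14-fold (adjusted p = 0.00038) higher.

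**Figure D5:**
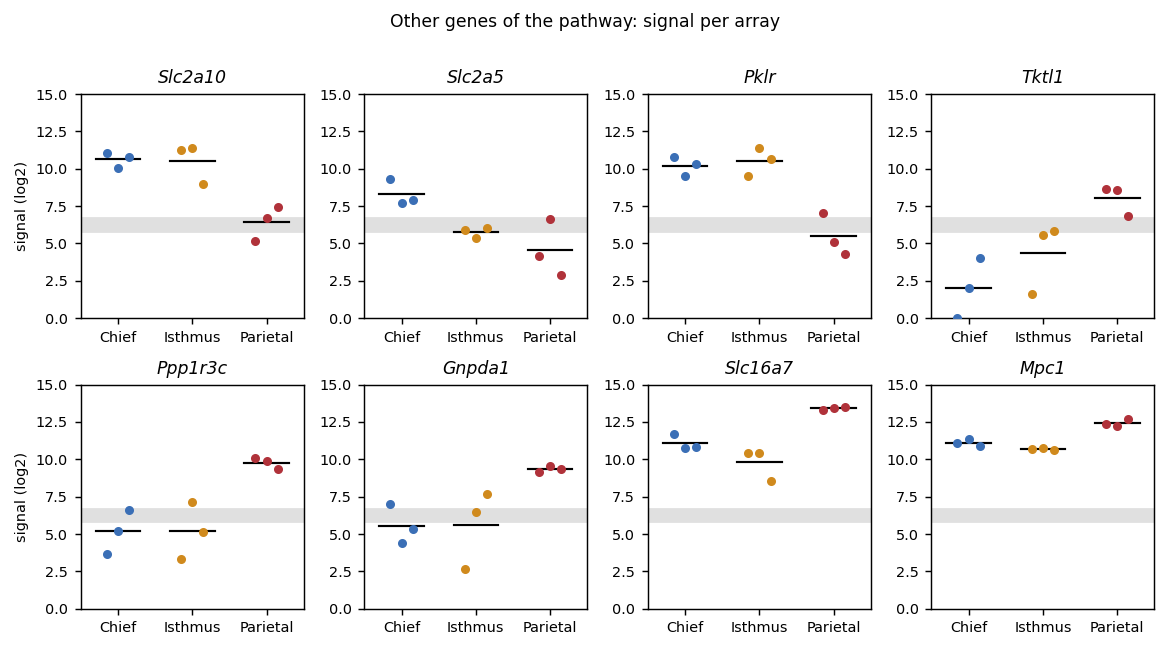
Log2 signal per array of 8 pathway genes outside the 40 members, with group means as black bars and a grey band over the array medians. The parietal points of Slc2a10 and Pklr lie below those of the other groups, those of Tktl1 and Ppp1r3c lie above, and Slc16a7 and Mpc1 are bright in all groups and highest in the parietal samples.

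The regulators of these genes were listed separately, 30 genes of which 29 were tested. Against the chief samples 6 (20.7%) were higher and 2 (6.9%) lower, beside 10.7% and 13.5% of all genes, with a median difference of 0.17. Against the isthmus samples 6 (20.7%) were higher and 5 (17.2%) lower, beside 12.2% and 15.4%, with a median of 0.37. Centring gave 12 to 1 and 7 to 1, beside 3100 to 807 and 1904 to 1178 over all genes. Hif1a, the oxygen-regulated subunit of the hypoxia-inducible factor, was 10.49, 10.60 and 10.72 in chief, 11.61, 10.73 and 11.15 in isthmus, and 11.49, 11.41 and 11.83 in parietal samples. It was 1.96-fold above the chief samples (limma adjusted p = 0.0158), not above the isthmus samples by this test (adjusted p = 0.263), and lost its call under 4 alternatives, among them the mean of its probe sets (adjusted p = 0.615) and the fit without parietal replicate 3 (adjusted p = 0.0762). Egln3, a prolyl hydroxylase that marks Hif1a for breakdown and is itself a target of it, was 10.50, 10.44 and 10.20 in chief, 9.72, 9.36 and 10.54 in isthmus, and 8.47, 7.83 and 9.06 in parietal samples. All parietal arrays were lowest, 3.80-fold below chief (adjusted p = 0.0056) and 2.68-fold below isthmus samples (adjusted p = 0.0247), the second call being lost without isthmus replicate 3 or parietal replicate 1 or 2 (adjusted p = 0.0554 to 0.111). Egln1, the main prolyl hydroxylase of Hif1a, picked after its values had been seen, went the other way. It was 11.23, 10.52 and 10.97 in chief, 10.10, 10.24 and 9.90 in isthmus, and 11.82, 11.14 and 11.71 in parietal samples. It was 2.78-fold above isthmus samples (adjusted p = 0.00179), a call held under all 22 alternatives, and 1.57-fold above chief samples (adjusted p = 0.111, and 0.00482 with centring). Arnt, the partner of Hif1a, did not pass, with a difference of -0.09 from the chief samples.

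A coactivator and a nuclear receptor, Ppargc1a and Esrrb, were higher in the parietal samples. Ppargc1a, a coactivator of mitochondrial genes, was 9.53, 8.67 and 8.51 in chief, 10.27, 9.84 and 8.91 in isthmus, and 11.51, 11.01 and 12.13 in parietal samples, 6.26-fold (limma adjusted p = 0.000872) and 3.67-fold (adjusted p = 0.00657) higher. Esrrb, an estrogen-related receptor, was 5.09, 4.28 and 6.38 in chief, 4.31, 2.69 and 4.33 in isthmus, and 8.70, 9.25 and 8.23 in parietal samples, at least 4.58-fold (adjusted p = 0.0148) and 5.95-fold (adjusted p = 0.00154) higher. Every parietal array was above every other array for both, and the Esrrb call against chief samples was lost without parietal replicate 1 (adjusted p = 0.0544) or 2 (adjusted p = 0.0741). Akt2, the insulin-signalling kinase that drives GLUT4 to the cell surface, was 2.57-fold (adjusted p = 0.0276) and 3.38-fold (adjusted p = 0.00625) higher, the first call being lost under 7 of 22 alternatives. Akt1, Tbc1d1 and Esrrg of the same list were picked after their values had been seen. Akt1 was lower in parietal than in chief samples (adjusted p = 0.045), a call lost under 15 of 22. Tbc1d1 was called lower than in isthmus samples, but not with the replicate block (-1.61, adjusted p = 0.0566). Esrrg, another estrogen-related receptor, was higher than in chief samples (adjusted p = 0.00166), a call held under all 22. Prkaa2, a catalytic subunit of the energy-sensing kinase AMPK, was at least 4.0-fold above chief (adjusted p = 0.045; difference 2.02, or 1.19 without chief replicate 2) and 4.72-fold above isthmus samples (adjusted p = 0.0254), calls lost under 11 and 6 of 22 alternatives. Max, the partner of Myc, was 4.15-fold lower in parietal than in isthmus samples (adjusted p = 0.0436) and lost this call under 10 of 22. Myc and Epas1 of the same list were also picked after their values had been seen. Myc was called lower than in isthmus samples, a call lost under no alternative, and did not pass against chief samples (limma adjusted p = 0.0721). Epas1 was called lower than in isthmus samples, but not with no filter (-1.06, adjusted p = 0.0513) or with centring (-0.74, adjusted p = 0.182). Between isthmus and chief samples 1 regulator passed, Txnip, an inhibitor of glucose uptake, at 2.23-fold higher (adjusted p = 0.0455), and the call was lost under 14 of 22.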

How the data were processed

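RNA of 9 samples was hybridised to 1 Affymetrix array each. The values the authors deposited are log2 signals from MAS5, according to the submitters' processing notes, which give no version or log step. The linear mean of each array, trimmed by 2% on both sides, lay at 496 to 497, and 1.99% to 3.91% of an array's values were exactly 0, read as a floor. MAS5 scales arrays to one mean, so a shift over many genes moves all differences.

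Of 45037 probe sets, 34945 named 1 gene, 932 several and 9160 none in the platform annotation. RefSeq (GRCm38.p6) matched 34741 by Entrez identifier, with 0 symbols changed. The brightest probe set stood for a gene. Tests covered the 11006 of 18193 genes that exceeded the array median on 3 or more of 9 arrays. limma 3.58.1 in R 4.3.3 (lmFit, contrasts.fit, eBayes with an intensity trend) fitted 3 group means to all 9 arrays, with 6 residual degrees of freedom. Each two-sided p was adjusted over those genes by the Benjamini-Hochberg method, per comparison, with calls at an adjusted p under 0.05. The code was tested on simulated data. The number of arrays limits the precision.

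Members, gene lists, markers and motifs were chosen with earlier results of these data known. Values per array are given for called members and at least the brightest of each step, and for up to 6 called genes with the largest difference and the 2 brightest uncalled in each other list. The 22 alternatives changed the scaling, filter, pseudocount, floor, probe set choice, variance trend, groups fitted and replicate block, or left out arrays.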

Additional observations from a re-analysis of the deposited data

How the results depend on the processing

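Of the 36 called differences of members, 14 kept their call under all of the 22 alternatives in which they were tested, and 0 changed sign. Without the intensity trend 16 of the 36 calls were lost. Of the 60 uncalled ones, 29 changed sign and 14 were called under at least 1 alternative. Against the chief samples, 12 members higher and 3 lower became 17 and 1 with centring, 8 higher without the intensity trend, and 8 and 1 without chief replicate 3 and parietal replicate 1 together. Leaving out 1 array gave 8 to 12 higher and 2 to 4 lower. Against the isthmus samples, 12 higher and 8 lower became 4 lower with centring, 7 higher and 5 lower without the trend, and 5 lower with the mean of all probe sets, and leaving out 1 array gave 10 to 13 higher and 6 to 8 lower. Between isthmus and chief samples, the 1 higher member became 4 with centring and 0 with no filter, with a pseudocount of 16 or 64, with values floored at the array median, with the mean of all probe sets, without the trend, in the fit of 2 groups, without chief replicate 3 and parietal replicate 1 together, and in the filter on 6 arrays, where Pfkfb3 was not tested, and leaving out 1 array gave 0 to 1. The causes were not tested.

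With the replicate block the counts were 12 higher and 3 lower, 12 higher and 8 lower, and 0 in each direction between isthmus and chief samples, where Pfkfb3 had an adjusted p of 0.0601, and the block changed no other call of a member. Same-numbered samples had deviations correlated at -0.0371 to 0.0734, so the numbers were not taken to pair the samples. With 3 arrays a group, signals near the array median give only bounds.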

Other observations

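The genes whose values over the 9 arrays were most like those of Slc2a4, Pfkfb3 and Ldhb are given as a description. Likeness was ranked by Pearson correlation over all tested genes. They were picked for likeness to genes highest in the parietal samples, so their own parietal lead follows from the choice. Beside Slc2a4 these were Cd36, a fatty acid transporter, with mean log2 signals of 7.43 in the chief, 7.93 in the isthmus and 13.06 in the parietal samples, Hey1, a target of Notch signalling (3.07, 4.56 and 9.24), and Apoa4, an apolipoprotein (6.74, 7.27 and 12.64). Beside Pfkfb3 they were Mindy2, a deubiquitinase (10.07, 11.16 and 12.41), Rdh7, a retinol dehydrogenase (7.85, 9.46 and 12.49), and Acadl, a dehydrogenase of fatty acid oxidation (10.19, 11.10 and 12.07). Beside Ldhb they were Sycn, a secretory granule protein (6.09, 6.13 and 11.43), Mfsd4a, a membrane transporter (10.20, 9.89 and 13.10), and Slc4a2, the basolateral anion exchanger of parietal cells (11.97, 11.81 and 13.91). The arrays fall into separate groups, so no correlation is given.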
